A study of Mus musculus with 6 samples.

Results

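The signal of 10 elastic fibre genes was followed through lungs that lack Nogo-A and Nogo-B: Eln, Fbn1, Fbln1, Fbln5, Lox, Loxl1, Loxl2, Mfap4, Mfap5 and Emilin1. They were chosen by name among the probes of the array that are not controls, and each gene is shown by its brightest probe over the 6 arrays. All 10 were measured, out of 20246 genes that had a probe well above background in 3 or more of the 6 lungs, and all 10 probes were well above background on all 6. The study compared lungs of 3 Nogo-A/B knockout mice, numbered 1, 11 and 12, with those of 3 wild-type mice, numbered 11, 12 and 13. Every mouse was male, 8 weeks old and naive, that is, not challenged. Nogo-A and Nogo-B are long products of the reticulon gene Rtn4, and the strain and the way they were deleted are not given in the sources used here. One lung RNA was hybridised to 1 array in 1 colour (Cy3), and the design text calls the lungs individual biological replicates.

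Elastic fibres give the lung its recoil. Tropoelastin, the product of Eln, is secreted as a soluble monomer, gathered on a scaffold of fibrillin microfibrils with the help of fibulins, and made insoluble when lysyl oxidases cross-link its lysines. In the lung the fibres lie in alveolar walls, airways, vessels and pleura, and they are made by fibroblasts, smooth muscle, endothelial and mesothelial cells, mostly during growth, with slow turnover in the adult.

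Values are log2 of the processed signal minus the log2 of the 75th percentile of the same array, so that 0 is the brightness that 75% of the probes do not reach. They serve to compare lungs for 1 probe, not probes with each other. Per array, 68.9% to 78.0% of probes passed as well above background. As a check of the labels, the brightest Rtn4 probe measured 1.099, -0.71 and -1.79 in knockouts 1, 11 and 12, against 1.69, 1.62 and 2.36 in wild types 11, 12 and 13. A second Rtn4 probe, for the transcript AK047982, cleared the background on 0 of 3 knockout arrays and on 3 of 3 wild-type arrays. No source used here says which of these probes lies in the deleted stretch. All 9 measured lung epithelial markers were well above background on every array. The arrays were scanned on 2 days. Day 2 held knockout 12, wild type 11 and wild type 12, all on 1 slide, and day 1 held knockout 1, knockout 11 and wild type 13, on the other 2 slides. Each day held both genotypes but in unequal numbers, so a genotype difference fitted without scan day contains part of any day difference. Between the days 2220 genes differed at an adjusted p under 0.05 (limma, with genotype in the model). In bulk tissue, fewer cells of a type and less RNA per cell cannot be told apart.

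The first question was whether these genes had another level in knockout than in wild-type lungs. None of the 10 passed the test. Eln had the largest fitted difference, 1.41-fold higher in the knockout, and the genotypes overlapped for every gene. In limma 0 of the 10 passed an adjusted p of 0.05 and 0 reached an unadjusted p under 0.05. Over all genes tested, 0.00% passed the adjusted threshold and 0.943% reached the unadjusted one, 0.291% with a higher and 0.652% with a lower knockout, so 0 of 10 is near the background. The genotypes did not overlap with a higher knockout for 2.40% of all genes and with a lower one for 1.60%. Of the fitted differences 7 lay above 0 and 3 below, where 52.2% of all genes lay above 0. The median difference was 0.08 for the 10 genes and 0.01 for all genes, on the log2 scale.

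**Figure D1:**
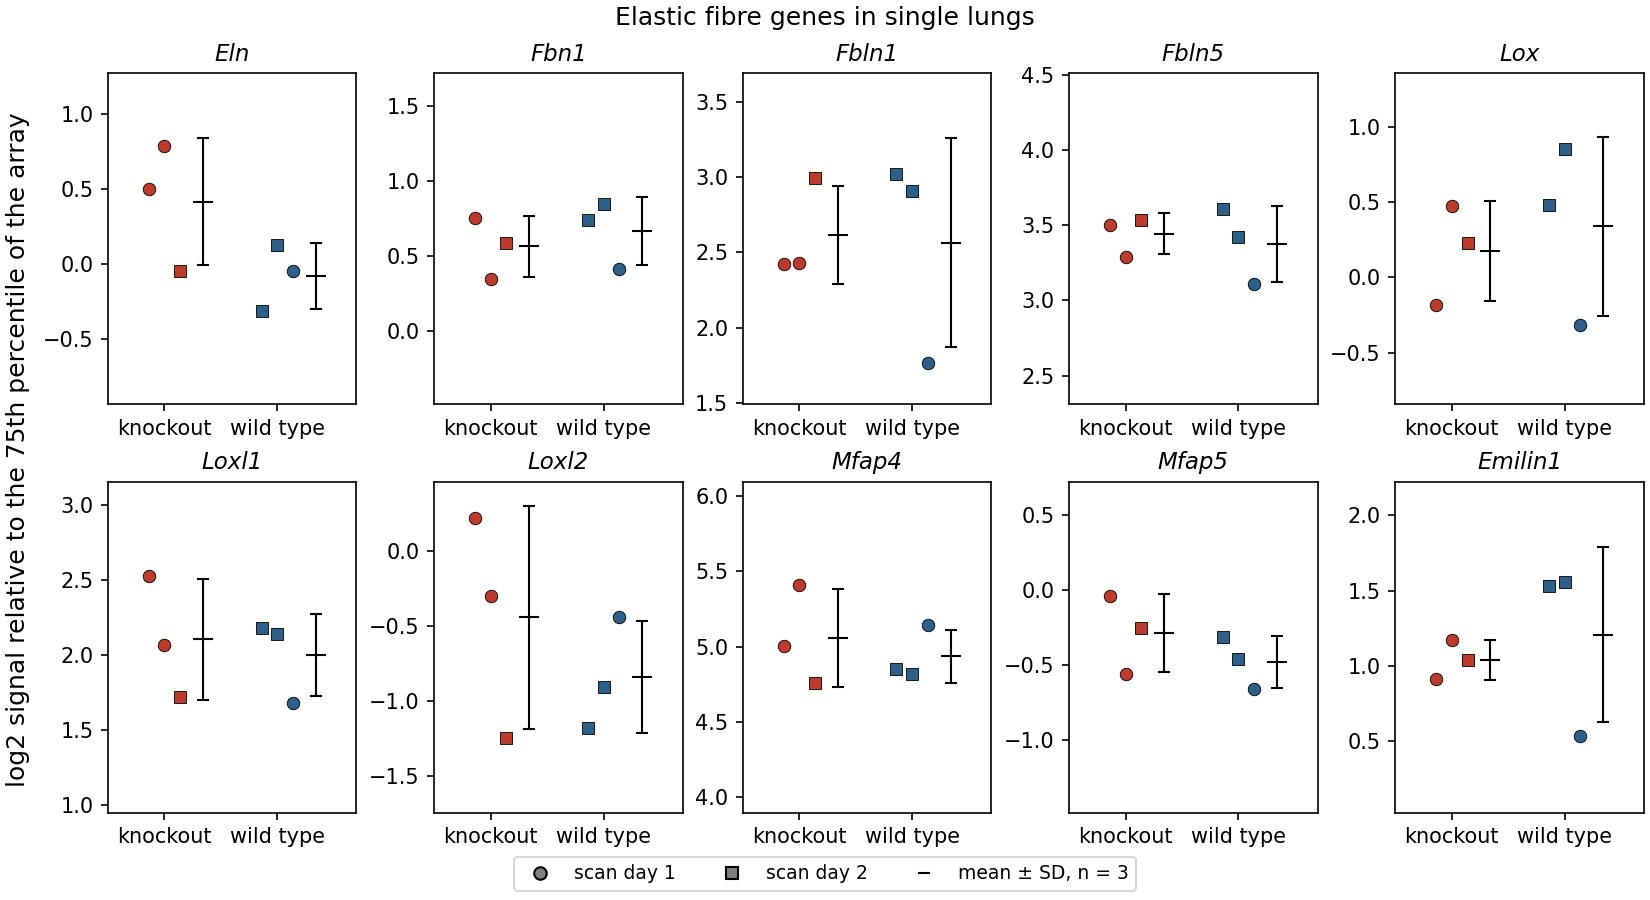
Each point is the log2 signal of 1 lung relative to the 75th percentile of its array, with knockout left of wild type, circles for scan day 1 and squares for scan day 2. Bars are mean ± SD (n = 3), every panel spans the same log2 range, and the genotypes overlap in all 10 panels.

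The core of the fibre is elastin. Eln measured 0.50, 0.79 and -0.04 in knockouts 1, 11 and 12, against -0.31, 0.13 and -0.05 in wild types 11, 12 and 13. Both knockout lungs of scan day 1 were higher than every wild-type lung, while knockout 12, scanned on day 2, lay among the wild types. The group means were 0.42 ± 0.42 in the knockout and -0.08 ± 0.22 in the wild type (SD, n = 3 each). The log2 difference was 0.49 (SE 0.26), with a 95% interval from -0.15 to 1.13, and limma gave an adjusted p of 0.9998. Blocking on scan day gave 0.37 (SE 0.23), and the lungs of day 1 alone gave 0.69 and those of day 2 alone 0.048. Eln was the 1 member whose difference kept its sign in all 19 alternative analyses, and it reached an unadjusted p under 0.05 in 1 of them, without knockout 12, where the difference was 0.72. Emilin1 and Loxl2 also did so in some alternatives, and no member passed the adjusted threshold in any. The share of all genes at the unadjusted threshold was not counted in the alternatives, so these cases have no background to be read against.

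Around the elastin core run the microfibrils. Fbn1 encodes fibrillin-1, their main structural protein, and it was among the steadiest members, within a 1.41-fold range over all 6 lungs. Its values were 0.76, 0.35 and 0.59 in knockouts 1, 11 and 12, against 0.74, 0.85 and 0.41 in wild types 11, 12 and 13. The lowest knockout and the lowest wild-type lung were both scanned on day 1. The difference was -0.10 (SE 0.20), with a 95% interval from -0.59 to 0.38.

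Mfap5 encodes a microfibril-associated glycoprotein, MAGP-2, which binds fibrillin. It measured -0.04, -0.56 and -0.26 in knockouts 1, 11 and 12, against -0.31, -0.46 and -0.66 in wild types 11, 12 and 13. Knockouts 1 and 12 lay above all 3 wild types and knockout 11 between 2 of them. The difference was 0.19 (SE 0.20), with a 95% interval from -0.30 to 0.69. Mfap4 encodes a fibrinogen-domain protein that binds tropoelastin and fibrillin. It measured 5.004, 5.41 and 4.76 in knockouts 1, 11 and 12, against 4.85, 4.82 and 5.14 in wild types 11, 12 and 13. In both genotypes the lungs of day 1 were the higher ones, and the genotypes overlapped widely, with a difference of 0.12 (SE 0.22) and a 95% interval from -0.42 to 0.67.

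Emilin1 encodes a glycoprotein found where elastin meets the microfibrils. It measured 0.91, 1.17 and 1.04 in knockouts 1, 11 and 12, against 1.53, 1.56 and 0.54 in wild types 11, 12 and 13. The knockout lungs lay close together, between 2 high wild-type lungs and 1 low one. The difference was -0.17 (SE 0.31), with a 95% interval from -0.93 to 0.59, and it moved with each wild-type lung left out. It was -0.50 without wild type 13, where the adjusted p in limma was 0.663, -0.0069 without wild type 11 and 0.0070 without wild type 12. Within day 1, where wild type 13 is the only wild-type array, it was 0.51, and within day 2 it was -0.51.

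Some fibulins carry tropoelastin to the fibre and tether it to cells. Fbln5 encodes fibulin-5, which binds tropoelastin and integrins. Its values stood at 3.50, 3.29 and 3.54 in knockouts 1, 11 and 12, against 3.60, 3.42 and 3.11 in wild types 11, 12 and 13. All 6 lungs lay within a 1.41-fold range, and the difference was 0.07 (SE 0.19), with a 95% interval from -0.41 to 0.54, the lowest SE of the 10 genes. Fbln1 encodes fibulin-1, a protein of basement membranes and of the elastin core. It measured 2.43, 2.43 and 2.99 in knockouts 1, 11 and 12, against 3.02, 2.91 and 1.77 in wild types 11, 12 and 13. The 3 lungs of day 2 were the 3 highest whatever their genotype, and wild type 13 was the lowest. The difference was 0.05 (SE 0.38), with a 95% interval from -0.88 to 0.99. It was -0.35 without wild type 13 and -0.14 without knockout 12. With scan day as a block it was 0.345 (SE 0.19), and the lungs of day 1 alone gave 0.66 and those of day 2 alone 0.029.

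Lysyl oxidases cross-link the fibre. Lox, the founding member, which acts on collagen and elastin, measured -0.18, 0.47 and 0.23 in knockouts 1, 11 and 12, against 0.48, 0.85 and -0.31 in wild types 11, 12 and 13. The wild-type lungs held both the highest and the lowest value, and the difference was -0.17 (SE 0.35), with a 95% interval from -1.01 to 0.68. Loxl1, which in mice is needed to renew elastic fibres in adult tissue, measured 2.53, 2.07 and 1.72 in knockouts 1, 11 and 12, against 2.18, 2.14 and 1.68 in wild types 11, 12 and 13. Knockout 1 was the highest lung and the other knockouts lay within the wild-type range. The difference was 0.10 (SE 0.27), with a 95% interval from -0.55 to 0.76. Loxl2, which cross-links collagen IV, measured 0.22, -0.30 and -1.24 in knockouts 1, 11 and 12, against -1.18, -0.91 and -0.44 in wild types 11, 12 and 13. It had the widest range of the 10 genes, 2.76-fold over the 6 lungs, with the highest and the lowest lung both in the knockout. The difference was 0.40 (SE 0.41), with a 95% interval from -0.60 to 1.40. It was 0.098 with scan day as a block, 0.068 without knockout 1 and 0.80 without knockout 12.

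These intervals set what the comparison could miss. Over the 10 genes they ran from -1.01, for Lox, to 1.40, for Loxl2, which is a fold from 0.496 to 2.64 of knockout over wild type. For Fbn1 and Fbln5 the fold interval ran from 0.664 to 1.31 and from 0.754 to 1.45, so a change beyond these bounds lies outside the interval for these 2 genes. For Eln it ran from 0.903 to 2.19.

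**Figure D2:**
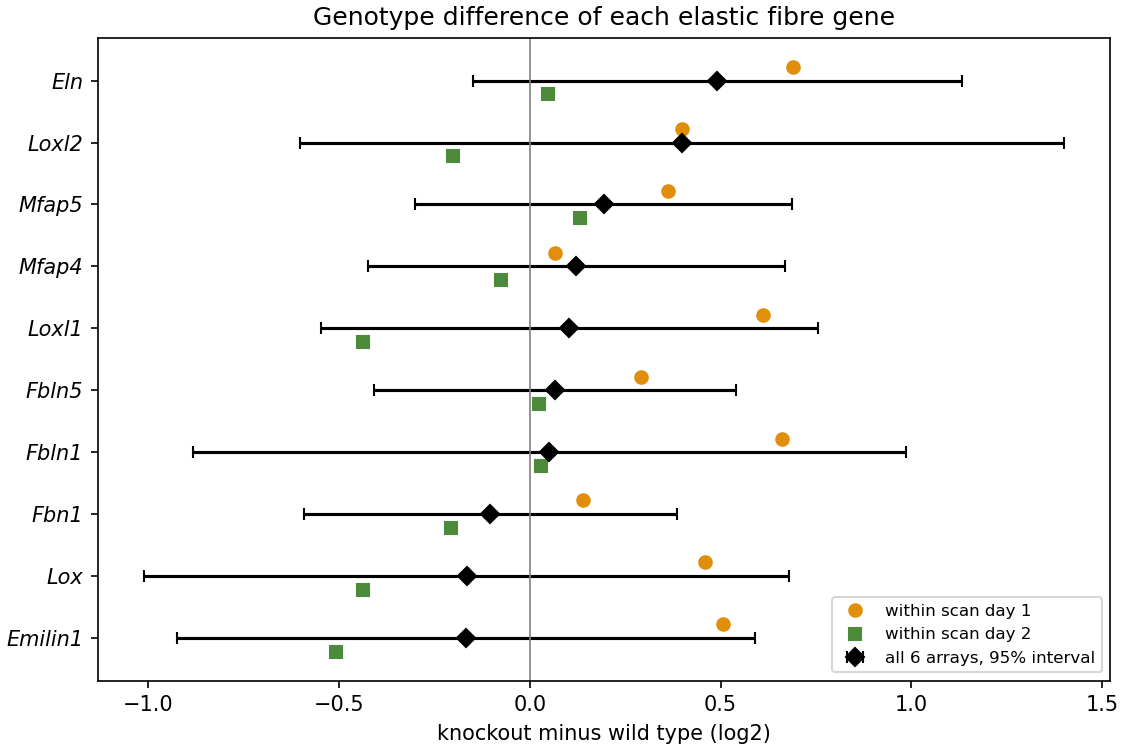
Black diamonds with 95% intervals show knockout minus wild type on the log2 scale from all 6 arrays, circles the difference within scan day 1 and squares that within scan day 2. Every interval holds 0, from Emilin1 at -0.17 to Eln at 0.49, and all 10 circles lie right of 0 while 6 of 10 squares lie left of it.

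The 2 scan days gave different pictures of the same comparison. Within day 1, with 2 knockout lungs against wild type 13 alone, all 10 genes had a difference above 0 with a median of 0.43, where 45.4% of all genes lay above 0 and their median was -0.04. Wild type 13 had the lowest value of the 6 lungs for 6 of the 10 genes, namely Fbln1, Fbln5, Lox, Loxl1, Mfap5 and Emilin1. Within day 2, with knockout 12 alone against 2 wild-type lungs, 6 of the 10 lay below 0 with a median of -0.14, where 39.8% of all genes lay below 0 and their median was 0.08. Each of these fits rests on a single lung of 1 genotype, taken to vary as much as the rest, and the fits share no array. No gene passed the adjusted threshold in either, and the difference between the days was not tested. With scan day as a block over all 6 arrays the median of the 10 was 0.09, and 7 lay above 0.

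The second comparison set the days against each other. The members' counts between the days were near the shares of all genes when both directions are counted. Fbln1 was higher on day 2, and it was the 1 member of 10 past the adjusted threshold. Over all genes 2.24% passed as higher and 8.73% as lower on day 2. The mean was 2.97 on day 2 and 2.21 on day 1, and the difference with genotype in the model was 0.88 (SE 0.19), with an adjusted p of 0.0470 in limma. This call is narrow: Fbln1 passed in 6 of 14 alternative analyses, with adjusted p from 0.0182 to 0.171, and it was lost without each array but knockout 12, at adjusted p of 0.166 without wild type 11, 0.171 without wild type 12, 0.159 without wild type 13, 0.0884 without knockout 1 and 0.0577 without knockout 11. The values without knockout 12 and without wild type 13 were 1.20 and 0.57, so the estimate was above 0 throughout.

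Loxl2 went the other way. Its mean was -1.11 on day 2 and -0.18 on day 1, a difference of -0.90 (SE 0.24) with an adjusted p of 0.0793, which does not pass, and its days did not overlap. Loxl2 passed in 2 of 14 alternatives, at 0.0462 with a trended variance and at 0.0453 with all probes of a gene averaged, where Fbln1 was lost at 0.0638. These were the 2 of 10 at an unadjusted p under 0.05, 1 on each side, where 27.7% of all genes were, 12.2% higher and 15.5% lower on day 2. Mfap4 was also separate by day, with a mean of 4.81 on day 2 and 5.18 on day 1 and a difference of -0.38 (SE 0.17) at an adjusted p of 0.224. So 3 of the 10 genes had days that did not overlap, 1 higher and 2 lower on day 2, where 39.5% of all genes had such days, 20.0% higher and 19.5% lower. By sign, 6 of the 10 lay above 0 on day 2 minus day 1, as did 54.2% of all genes. The other 7, Eln, Fbn1, Fbln5, Lox, Loxl1, Mfap5 and Emilin1, overlapped between the days, with differences from -0.37 for Eln to 0.53 for Lox. The size of a day difference depends on the scaling: the median over all genes was 0.04 here and 0.34 with the median of each array in place of its 75th percentile, where Fbln1 was at 1.18 and Loxl2 at -0.60.

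Fbln1 and Loxl2 each had a second probe at another position. The 2 Loxl2 probes are listed for different transcript records, and the brightest carries the name Loxl2 from the array files alone, since the RefSeq table used here does not list its record. The probes are 60 bases long, and the first 30 bases of each are shown in lower case as the array files list them, because these 4 probes carry the day difference and the Eln probe the largest genotype difference.
Fbln1 brightest: ttttttaaccaacggggctctttgtgtttc
Fbln1 second: aattttgttcccttttctacctgtgagcta
Loxl2 brightest: caccaaaggcttcgggactcctgtgtgtag
Loxl2 second: tgaagtgccagaatcagatttctctaacaa
Eln: ataccggaagccttgacgatggatttggtg
Their positions, as listed with the arrays, are in mouse build mm7, and no annotation of that build was used, so exon or UTR is not stated. The Fbln1 probes lie on the plus strand at chr15:85367889-85367948 and chr15:85367745-85367805. The Loxl2 probes lie on the plus strand at chr14:64339741-64339800, listed for the transcript XM_985144, and chr14:64336628-64336687, listed for NM_033325. The Eln probe lies on the minus strand at chr5:133674539-133674598. Their GC content runs from 40% to 50%. For 5 more genes the brightest probes lie at chr2:125041844-125041903 for Fbn1, chr12:99245331-99245390 for Fbln5 and chr9:58319258-58319317 for Loxl1, all on the minus strand, and at chr11:61570152-61570211 for Mfap4 and chr6:122565741-122565800 for Mfap5, on the plus strand. The Emilin1 probe is listed at chr5:29952688-29953144 on the plus strand, a span of 457 bases for a probe of 60.

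The second Fbln1 probe measured 0.75, 0.68 and 0.99 in knockouts 1, 11 and 12, against 0.96, 0.84 and 0.39 in wild types 11, 12 and 13. Its 3 highest lungs were again those of day 2 and its lowest again wild type 13, and its day difference was 0.40 (SE 0.14). For Loxl2 the second probe measured -2.96, -3.52 and -3.92 in knockouts 1, 11 and 12, against -4.13, -4.19 and -3.10 in wild types 11, 12 and 13. All day 2 lungs lay below all day 1 lungs, as for the brightest probe, with a day difference of -0.87 (SE 0.21). The genotype differences of these second probes were 0.08 for Fbln1 and 0.34 for Loxl2, against 0.05 and 0.40 for the brightest probes. Fbn1 also had 2 probes, and their genotype differences were -0.10 and -0.11. Fbln5 had 3, and the brightest and a second one differed in sign, at 0.07 and -0.22 (SE 0.22 for the second). The second was dim, though well above background on all 6 arrays. It measured -4.74, -5.14 and -4.67 in knockouts 1, 11 and 12, against -4.93, -4.44 and -4.53 in wild types 11, 12 and 13. The third, listed for the transcript AK084895, was well above background on 0 of 6 arrays.

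**Figure D3:**
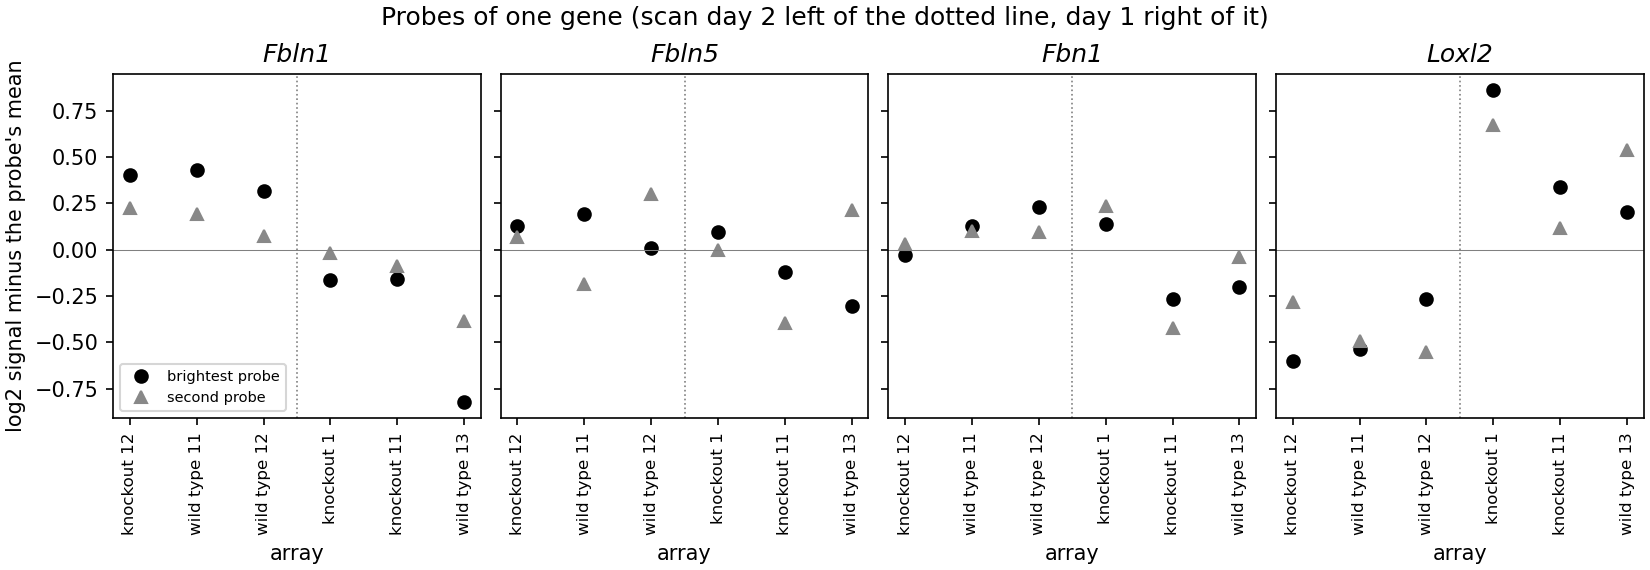
For the 4 genes with a second probe well above background on all 6 arrays, each point is the log2 signal of 1 array minus the mean of that probe over the 6 arrays, with circles for the brightest and triangles for the second probe. Both probes of Fbln1 are higher and both of Loxl2 lower on day 2, left of the dotted line, while the 2 Fbln5 probes part for wild type 11, wild type 12 and wild type 13.

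Some markers of the cells that build elastic fibres differed between the days, against shares of all genes of 2.24% higher and 8.73% lower on day 2. Of 9 smooth muscle markers, 7 were lower on day 2 at an adjusted p under 0.05, with a median difference of -1.15 over the list. Of 8 mesothelial markers, 7 were higher on day 2, with a median of 1.31. Of 13 fibroblast markers, 2 were lower and 0 higher, with a median of -0.27, and of 9 endothelial markers 1 was lower, with a median of -0.036. Cardiac muscle markers followed the days too: 7 of 8 were lower on day 2, with a median of -2.95. Loxl2 was low on the day when smooth muscle and cardiac markers were low, and Fbln1 was high on the day when mesothelial markers were high. The part of these cells in the values of either gene was not tested.

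Between the genotypes, the smooth muscle and mesothelial sums overlapped and the fibroblast sums did not, which turned on 1 gene. By sign, 8 of 9 smooth muscle, 0 of 8 mesothelial and 10 of 13 fibroblast markers lay above 0, against 52.2% of all genes. Of these lists 0 genes passed the adjusted threshold. Within day 1 the counts above 0 were 4, 4 and 8, against 45.4% of all genes. Within day 2 the counts below 0 were 7, 1 and 5, against 39.8% of all genes. The summed signal of the 9 smooth muscle markers, in multiples of the 75th percentile, ran from 22.7 to 77.2 in the knockout and from 28.6 to 60.9 in the wild type. For the 8 mesothelial markers it ran from 29.8 to 87.3 in the knockout and from 32.3 to 89.6 in the wild type. The sum of the 13 fibroblast markers ran from 339 to 361 in the knockout and from 270 to 320 in the wild type, and 0 of them reached an unadjusted p under 0.05. Without Inmt, the brightest of them, the sums overlapped, from 112 to 152 in the knockout and from 113 to 119 in the wild type, an alternative chosen after the values were seen. Other tissues varied between lungs: 9 skeletal muscle markers summed to 586 in knockout 1 and to between 1.33 and 11.4 in the other 5 lungs, and 8 cardiac muscle markers to between 5.57 and 103 over the 6. Of 10 cartilage markers 5 were measured, Col9a1, Matn1, Matn3, Hapln1 and Cnmd not passing the filter, with sums from 1.13 to 4.14 in the knockout and from 1.505 to 3.60 in the wild type. The 5 measured adipocyte markers summed to 4.05 to 8.01 in the knockout and 8.58 to 26.6 in the wild type. Without Cidec, the brightest of them, the sums overlapped, from 0.604 to 3.99 in the knockout and from 2.66 to 19.8 in the wild type. This alternative too was chosen after the values were seen. Of the 5, 3 were lower at an unadjusted p under 0.05 in limma, where 0.652% of all genes were. Gene by gene, all 5 overlapped between the genotypes. Whether any of these tissues bears on the 10 genes was not tested.

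**Figure D4:**
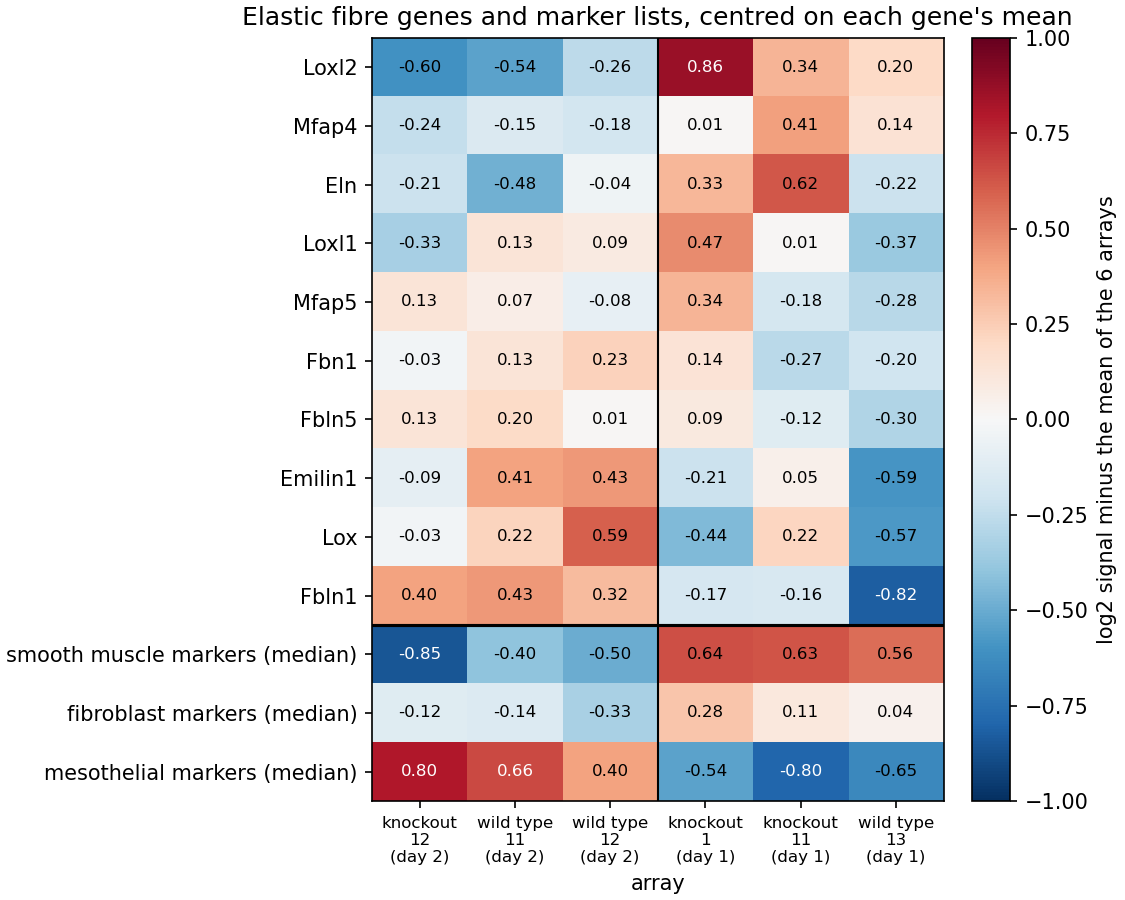
Each cell is the log2 signal of a gene on 1 array minus the mean of that gene over the 6 arrays, or the median of such values over a marker list, with the arrays of day 2 left of those of day 1 and genes ordered by their day difference. Loxl2 at the top follows the days in the same sense as the smooth muscle markers and Fbln1 at the bottom in the same sense as the mesothelial markers, and wild type 13 is low for most members.

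Among the array-wide profiles, the mean of the 10 centred genes was highest in knockout 1, at 0.14, and lowest in wild type 13, at -0.30. The genes whose signal followed that mean most closely over the 6 arrays were Cnot3, E2f3, Scn7a, Pbdc1 and Cpeb4, with Pearson coefficients from 0.981 to 0.991 among 15361 genes searched. With 6 arrays in 2 scan days and this many genes searched, these values describe the arrays only.

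The rest of the elastic fibre machinery split evenly in the direction of its differences. All 26 further genes of elastic fibres and microfibrils were measured: 13 lay above 0 and 13 below, and 0 passed the adjusted threshold. The median difference was -0.0012, with a range from -1.49 to 0.48 on the log2 scale. The lowest value had an SE of 1.31, from a gene well above background on 2 of 3 knockout and 3 of 3 wild-type arrays. At an unadjusted p under 0.05 there was 1, Mmrn1, which encodes multimerin-1, an EMILIN-family protein of platelets and endothelium. Mmrn1 measured 0.37, 0.54 and -0.06 in knockouts 1, 11 and 12, against 0.91, 0.93 and 0.90 in wild types 11, 12 and 13. Its 3 knockout lungs lay below all wild-type lungs, as 1.60% of all genes did, and the difference was -0.63 (SE 0.20) at an adjusted p of 0.9998. Mfap2, which encodes the second fibrillin-binding glycoprotein MAGP-1, was the reverse case, with 3.12, 3.22 and 3.06 in knockouts 1, 11 and 12, against 2.87, 2.88 and 2.94 in wild types 11, 12 and 13. Its groups did not overlap either, as for 2.40% of all genes on that side, with a difference of 0.23 (SE 0.15). Emilin2 at -0.95 (SE 0.73) and Fbln7 at 0.48 (SE 0.41) had wider errors. Within day 1 Emilin2 was at 0.63 and Fbln7 at 0.21, and within day 2 they were at -1.99 and 0.28.

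Elastin-degrading proteases came next. Of 12 measured, 9 lay below 0, with a median difference of -0.21, 0 passed the adjusted threshold and 2 were lower at an unadjusted p under 0.05, where 0.652% of all genes were. These were Mmp9, a gelatinase of neutrophils and macrophages, at -1.77 (SE 0.69), and Prtn3, the neutrophil serine protease proteinase 3, at -0.62 (SE 0.23). Prtn3 measured -4.98, -5.57 and -5.51 in knockouts 1, 11 and 12, against -4.98, -4.60 and -4.61 in wild types 11, 12 and 13. Its groups touched without overlap, with a lower knockout, as for 1.60% of all genes. The other 2 named proteases of neutrophil granules did not reach an unadjusted p under 0.05. They were Ctsg at -0.70 (SE 0.35) and the neutrophil elastase gene Elane at -0.60 (SE 0.34). Elane was well above background on 2 of 3 knockout and 3 of 3 wild-type arrays. Within day 1 Ctsg was at 0.055 and Elane at -0.54, and within day 2 they were at -1.22 and -1.10. All 10 neutrophil markers also lay below 0 in the fit of all 6 arrays, with a median of -1.097. Of them 0 passed the adjusted threshold. At an unadjusted p under 0.05 in limma 2 of the 10 were lower, where 0.652% of all genes were. For 1 of the 10 the genotypes did not overlap, with a lower knockout, as for 1.60% of all genes. The summed signal of the 10 markers ran from 47.3 to 201 in the knockout and from 89.3 to 322 in the wild type. Within scan day 1, 7 of these 10 markers lay above 0, and within day 2 all 10 lay below. The part of neutrophils in the protease values was not tested.

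Protease inhibitors, the TGF-beta pathway and receptors of the fibre had 0 genes at an unadjusted p under 0.05. Among 11 measured inhibitors 4 lay above 0. These included A2m, alpha-2-macroglobulin, which was well above background on 2 of 3 knockout and 1 of 3 wild-type arrays. They also included Timp2 at 0.51 (SE 0.43) and the cathepsin inhibitor Cst3 at 0.26 (SE 0.16). For Cst3 the genotypes did not overlap, with a higher knockout, as for 2.40% of all genes. Slpi, which inhibits neutrophil elastase, was at -0.58 (SE 0.42), with 0.13 within day 1 and -1.13 within day 2. Timp2 was lower on day 2, by a difference of -1.05 (SE 0.15) at an adjusted p of 0.0146 in limma, and its genotype difference was 0.16 with scan day as a block. Among 14 genes of TGF-beta, which microfibrils hold in latent form, 5 lay above 0. Tgfb1 was at -0.48 (SE 0.21) and its matrix target Tgfbi at -0.62 (SE 0.32). The coreceptor gene Tgfbr3 was at 0.43 (SE 0.25) and the signal transducer Smad2 at -0.28 (SE 0.20). For Tgfb1 the genotypes did not overlap, with a lower knockout, as for 1.60% of all genes. Within day 1 Tgfb1 was at -0.093 and Tgfbi at 0.012, and within day 2 they were at -0.77 and -1.09. Of the 14 genes, 9 lay above 0 within day 1 and 10 below 0 within day 2. Among 10 integrin and elastin receptor genes 3 lay above 0. The widest was Itgb3, a subunit of a receptor for fibrillin and fibulin-5, at -0.46 (SE 0.23). Itgb3 was at 0.031 within day 1 and at -0.81 within day 2. Itgb5, Itgb6 and Ctsa lay between -0.14 and 0.11.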

How the data were processed

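Total RNA of 6 mouse lungs was amplified and labelled with Cy3, per the labels' protocols. The deposited scanner files give an intensity per spot, made with Agilent Feature Extraction 9.5.1.1 on array design 014868, per the file headers. Version 9.1 is named in the submitters' processing notes. The processed intensity was background-subtracted and detrended, with surrogates for low values, per the file headers, and was not scaled between arrays. The authors' deposited value table holds log2 intensities, and no source used here gives their scaling.

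Of 41174 probes, 30 with no unflagged spot on an array were dropped. Spots of a probe were averaged, log2 signals were set against the 75th percentile of each array, and each gene was shown by the brightest probe among those well above background on at least 3 of 6 arrays. RefSeq (GRCm38) named 32691 probes. R 4.3.3 and limma 3.58.1 were used to fit all 20246 genes, with moderated two-sided tests from eBayes and p-values adjusted by Benjamini-Hochberg over all of them. An exact permutation test of 3 against 3 lungs cannot go below a p of 0.1, so none was used. Scan day and slide were read from the files.

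The 10 genes and all lists were chosen with earlier results of these data known. Besides the 10, the text names Rtn4, at most 4 genes of a pathway list by smallest p, and the 5 genes most like the mean of the 10 among those with an SD of at least 0.2. Alternatives covered normalization, background correction (normexp, offset 50), scaling, the authors' values, the filter, the probe rule, weights, variance model, slide, scan day, label number and each array left out. Figures were drawn with matplotlib 3.10.9.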

Additional observations from a re-analysis of the deposited data

How the results depend on the processing

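No elastic fibre gene passed an adjusted p of 0.05 between genotypes in any of 19 alternatives (lowest 0.218), and 7 of 190 gene and setting pairs reached an unadjusted p under 0.05. The share of all genes at that threshold was not counted in these alternatives, so the 7 pairs have no background to be read against. The signs of most members are not settled. Within day 1 the difference of Fbn1, Lox and Emilin1 turned to 0.14, 0.46 and 0.51, and the median of the 10 moved to 0.43. Within day 2 those of Loxl1, Loxl2 and Mfap4 turned to -0.44, -0.20 and -0.074, and the median to -0.14. With scan day as a block Lox was at 0.012 and Mfap4 at -0.0043, and with slide as a block Mfap4 was at -0.026. Under array weights Fbln1 was at -0.38 and Fbln5 at -0.028, and with all probes averaged Fbln5 was at -0.078. Leaving out each array gave -0.23 to 0.0038 for Fbn1, -0.35 to 0.28 for Fbln1, -0.070 to 0.18 for Fbln5, -0.49 to 0.090 for Lox, -0.11 to 0.30 for Loxl1, -0.054 to 0.27 for Mfap4, -0.50 to 0.0070 for Emilin1, 0.31 to 0.72 for Eln, 0.068 to 0.80 for Loxl2, 0.072 to 0.33 for Mfap5 and -0.062 to 0.19 for the median of the 10, below 0 without wild type 13.

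The label numbers 11 and 12 occur in both genotypes. Deviations from the group means correlated across genes at -0.25 for the lungs numbered 11 and at 0.42 for those numbered 12. The lungs numbered 12 shared a scan day and those numbered 11 did not. Between a knockout and a wild-type lung the coefficient ran from 0.26 to 0.57 within a day. Across days it ran from -0.58 to -0.20. With 2 shared numbers these coefficients do not show that the numbers pair the samples. With the label number as a replicate block, 0 genes passed, the median of the 10 was -0.18, and Fbln1, Fbln5, Loxl1 and Mfap5 turned to -0.25, -0.10, -0.26 and -0.019.

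Over all genes, the count past the adjusted threshold between genotypes was 0 in limma (191 at an unadjusted p under 0.05), 1 with normexp, the authors' values or the trended variance, 2 with median scaling, array weights or slide as a block, and 0 to 1 with each array left out. Between scan days it was 2220, against 3648 with median scaling, 1039 with array weights and 623 to 2461 with each array left out, the lowest without wild type 13, and over 1.5 times lower without any array but knockout 11. Of the 10 genes, 1 passed between days, 0 did without the filter or with array weights, 2 did with the trended variance, and 0 to 1 did with each array left out. The day difference of Loxl1 was 0.25 with median scaling and -0.58 to 0.47 with each array left out, and that of Emilin1 ran from -0.0057 to 1.01. All values rest on 6 arrays, which limits their precision.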
